A study of Rattus norvegicus with 50 samples.

Results

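The genes described here are a fixed list of 45 cell cycle and mitosis genes in rat liver, of which 43 were measured among 14217 genes. A gene counted as measured where a probe set with 1 gene symbol carried its name, and each gene was read from its probe set with the highest mean over all 50 arrays. Rrm2 and Tpx2 carried no such probe set in the annotation used. The measured genes comprised 3 cyclins of G1 and S phase entry, 10 genes of DNA replication and nucleotide supply (called the replication genes below) and 30 genes that act in G2, mitosis or cytokinesis (called the mitotic genes).

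A dividing cell copies its DNA in S phase and separates the copies in mitosis. Cyclin D and cyclin E, with their kinases, release E2F factors that switch on the replication genes, and a later wave of transcription under B-Myb and FoxM1 brings in Cdk1, its cyclins and the machinery of the spindle, the checkpoint and cytokinesis. Most hepatocytes of an adult liver are out of the cycle, and they and other liver cells can enter it again after tissue loss or injury.

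RNA came from snap frozen livers of female Brown Norway rats (Bn/Crl, 9 to 11 weeks old), with 1 array per rat in 17 groups, 16 of 3 rats and 1 of 2. Combination rats took oral nevirapine, an antiretroviral reverse transcriptase inhibitor, at 150 mg/kg on day 1, 100 mg/kg for 2 days, nothing for 1 day and 75 mg/kg thereafter, and received 1 intraperitoneal dose of galactosamine, an amino sugar toxic to hepatocytes, at 750 mg/kg on day 7. They were sampled 3 h, 24 h, 48 h and 8 d after galactosamine, with nevirapine continued, so that the last time was day 15 of nevirapine. Galactosamine rats received the same 750 mg/kg with sham oral doses and were sampled at 3 h, 24 h, 48 h (2 rats) and 8 d. Nevirapine rats were sampled 3 h, 24 h and 48 h after their first dose, when they had had 1, 2 and 3 doses, and at 15 d. They had sham injections, and for the 15 d rats 1 label text gives 75 mg/kg alone where the protocol gives the stepped doses. The last oral dose, drug or sham, came 3 h before sampling in nevirapine rats at 3 h. It came 5 h before sampling in the other rats at 3 h, and 2 h before it at every later time. Vehicle rats had sham oral and intraperitoneal doses and were sampled at 3 h, 24 h, 48 h, 8 d and 15 d. The series was designed around the 8 d during which both drugs given together led to fibrosis and either drug alone did not. No group had nevirapine alone for 7 days, so the combination rats at 3 h, 24 h and 48 h had more days of nevirapine behind them than the nevirapine rats of the same hour.

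Promoters of 35 of the 43 genes were listed in RefSeq (rat build GRCr8), and 6 are shown because their genes carry the results that follow: 4 mitotic genes that were highest late after the combination, and 2 helicase genes that were highest at 24 h or 48 h. Each line gives the 250 bases before the annotated start, 5′ to 3′ on the gene's strand. Capitals mark 3 motifs read on both strands. They are the cell cycle homology region (CHR, TTTGAA), the CCAAT box, and 4 spellings of the E2F site (TTCCCGC or TTGGCGC or TTCGCGC or TTGCCGC). Matches of different motifs overlapped at 5 places in the 35 promoters, and matches of 1 motif on opposite strands also overlap, as in the E2F runs of Mcm6. Cdk1, the kinase that starts mitosis, lies at chr20:19265043-19265292 on the plus strand. Mki67, the Ki-67 marker of cycling cells, lies at chr1:199952594-199952843 on the minus strand. Ect2, a factor that acts in cytokinesis, lies at chr2:111966627-111966876 on the minus strand. Cdkn3, a phosphatase that acts on cyclin-dependent kinases, lies at chr15:22502136-22502385 on the plus strand. Mcm6 and Mcm5, subunits of the replicative helicase, lie at chr13:42404353-42404602 on the minus strand and chr19:13488563-13488812 on the plus strand.
Cdk1: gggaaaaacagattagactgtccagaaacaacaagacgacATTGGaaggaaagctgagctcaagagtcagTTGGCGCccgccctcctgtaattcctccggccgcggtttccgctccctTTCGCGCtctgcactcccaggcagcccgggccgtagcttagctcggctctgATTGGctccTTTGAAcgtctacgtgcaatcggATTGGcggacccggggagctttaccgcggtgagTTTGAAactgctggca
Mki67: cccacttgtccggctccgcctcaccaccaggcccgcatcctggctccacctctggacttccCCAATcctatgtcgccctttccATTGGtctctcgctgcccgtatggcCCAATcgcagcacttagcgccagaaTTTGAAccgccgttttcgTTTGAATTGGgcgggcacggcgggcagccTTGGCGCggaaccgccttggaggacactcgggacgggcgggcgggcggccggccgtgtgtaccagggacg
Ect2: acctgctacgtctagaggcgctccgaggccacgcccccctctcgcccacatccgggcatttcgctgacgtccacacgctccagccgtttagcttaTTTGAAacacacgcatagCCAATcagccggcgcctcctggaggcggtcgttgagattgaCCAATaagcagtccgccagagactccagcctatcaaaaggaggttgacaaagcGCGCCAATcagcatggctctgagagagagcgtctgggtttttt
Cdkn3: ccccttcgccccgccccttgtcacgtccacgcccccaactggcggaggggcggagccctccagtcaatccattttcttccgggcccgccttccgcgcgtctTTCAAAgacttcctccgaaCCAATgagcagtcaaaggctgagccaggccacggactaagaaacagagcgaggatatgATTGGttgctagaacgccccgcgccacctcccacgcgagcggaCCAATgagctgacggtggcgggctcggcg
Mcm6: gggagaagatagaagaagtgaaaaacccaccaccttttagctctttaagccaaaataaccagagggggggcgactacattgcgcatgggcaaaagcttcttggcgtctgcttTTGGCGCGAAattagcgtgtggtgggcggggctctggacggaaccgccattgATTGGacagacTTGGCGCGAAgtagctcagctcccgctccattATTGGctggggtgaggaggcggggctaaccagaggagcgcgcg
Mcm5: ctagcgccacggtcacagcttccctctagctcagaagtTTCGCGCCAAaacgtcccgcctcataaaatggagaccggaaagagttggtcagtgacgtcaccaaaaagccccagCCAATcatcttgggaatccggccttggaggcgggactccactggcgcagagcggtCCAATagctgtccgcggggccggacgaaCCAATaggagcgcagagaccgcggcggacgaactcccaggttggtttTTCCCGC

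The CHR hexamer stood in 13 of 25 promoters of mitotic genes (52%) and in 1 of 10 promoters of replication genes and G1 cyclins (10%), against 16% of all 27457 promoters of the same length. The CCAAT box stood in 20 of 25 (80%) and 6 of 10 (60%), against 34.3% of all promoters. Both motifs together were found in 13 of the 25 mitotic promoters (52%), in 0 of the 10 others and in 5.76% of all promoters. The E2F spellings ran the other way, with 6 of 10 promoters of replication genes and G1 cyclins (60%), 4 of 25 mitotic promoters (16%) and 7.97% of all promoters. In Cdk1 the hexamer began 72 and 16 bases before the start, and in Mcm6 the E2F letters began 138, 135, 75 and 72 bases before it. These are matches of letters and were not tied to any factor here.

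Arrays were alike in scale, with medians of 4.95 to 5.09 on the log2 scale, and 27 Bacillus control probe sets, which have no target in rat liver, had means of up to 4.37, taken here as the background level. The liver label was borne out by 7 hepatocyte markers, whose mean log2 level per group had medians of 12.24 to 12.97. Of the 43 genes, 15 had every group mean at or above background, 25 had some means under it and 3 (Ccne2, Kif2c and Melk) had all means under it. Where a group's mean was under background the fold between groups is given as at least so many fold, the other group's mean set against 4.37. Where both were under it no fold is given. Medians, differences between effects and changes of single probe sets are given with no floor at background unless stated, so their sizes are not bounds. A gene was called higher or lower where limma's test, fitted over all 17 groups and adjusted by Benjamini-Hochberg over 14217 genes, gave an adjusted p under 0.05.

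3 rats stood apart from the others of their group in these genes, rat87 (combination, 8 d), rat70 (combination, 48 h) and rat31 (nevirapine, 3 h). Rat87 held the highest value of all 50 rats for 28 of the 43 genes, 26 of them mitotic, and rat70 for 8. The share of all genes highest in each rat was not counted. Results of their groups are given with and without them. Each rat was summarised by its median log2 distance from the mean of the 15 vehicle rats. Over the mitotic genes that median was 2.83 in rat87, against 0.81 and 1.06 in the other 2 rats of its group, and 1.52 in rat31 against 0.02 in each of the other 2. Over the replication genes it was 1.85 in rat70, against 0.68 and 0.69 in the other 2. Vehicle rats lay between −0.12 and 0.14 over the mitotic genes and between −0.20 and 0.36 over the replication genes.

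**Figure D1:**
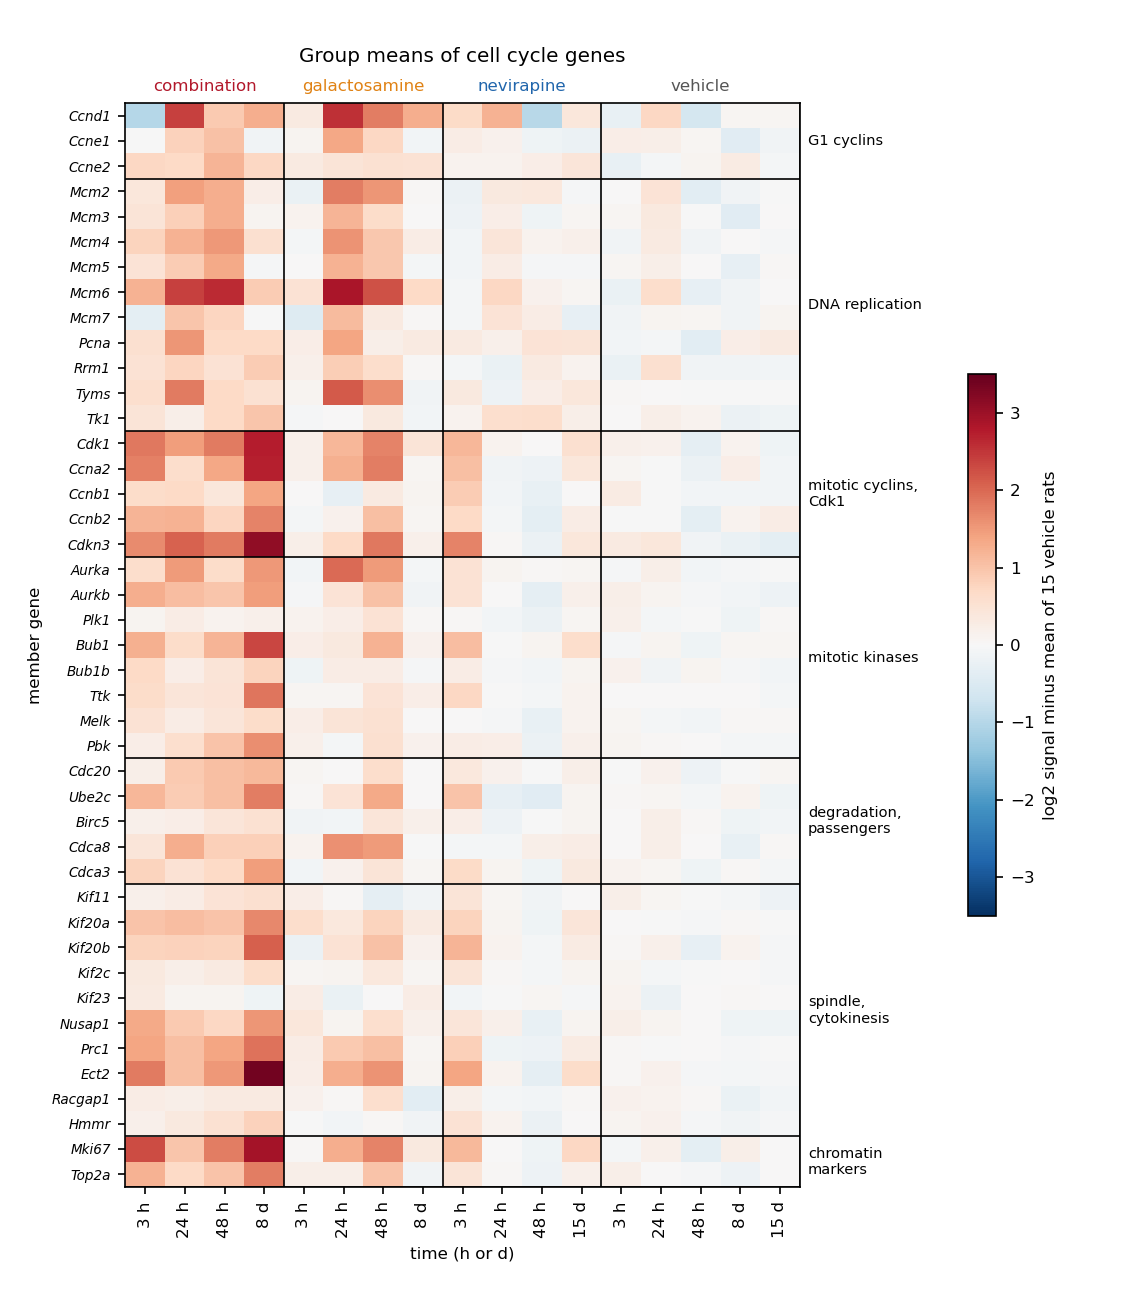
Mean log2 signal of each of the 43 genes in each of the 17 groups, minus the mean of the 15 vehicle rats, with genes in rows by role and groups in columns by treatment and time. Most mitotic genes are darkest in combination rats at 8 d, while the helicase genes are darkest in galactosamine rats at 24 h and combination rats at 48 h.

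The group with the highest mean differed between the 2 phases of the cycle. Combination rats at 8 d had the highest mean of all 17 groups for 27 of the 43 genes, among them all 5 of the mitotic cyclins with Cdk1 and Cdkn3, 4 of 5 genes of mitotic degradation and the passenger complex, 6 of 8 kinases and checkpoint genes, 8 of 10 spindle and cytokinesis genes and both chromatin markers, but 2 of 10 replication genes. Galactosamine rats at 24 h had the highest mean for 9 genes, 5 of them replication genes and 2 of them G1 cyclins. Rat87 is in the combination means at 8 d, and the groups were not ranked without it. For Nusap1 the other 2 rats (5.94 and 6.34) were below all 3 combination rats at 3 h (6.59, 6.80 and 6.36). For Ect2 they (5.24 and 6.03) were above those 3 rats (4.79, 5.09 and 4.57). Among the 5 vehicle groups, 3 of the 43 genes varied by limma's F test (Mcm2, Mcm3 and Rrm1, adjusted p = 0.0448, 0.0401 and 0.0121), against 29.6% of all genes. In whole liver RNA, more or fewer dividing cells and more or less RNA per cell cannot be told apart, and this holds for every result below.

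At 8 d after galactosamine, the livers of combination rats carried a broad rise of mitotic genes. Called higher than in vehicle rats at 15 d were 27 of the 30 mitotic genes, 2 of the 10 replication genes (Rrm1 and Tk1) and 1 of the 3 G1 cyclins (Ccnd1), which is 30 of 43 in all and none lower, against 13.1% of all genes called higher and 11.7% lower. The rise took in all 5 of the mitotic cyclins with Cdk1 and Cdkn3, all 5 genes of degradation and passengers, 7 of 8 kinases and checkpoint genes, 8 of 10 spindle genes and both chromatin markers. Plk1, Kif23 and Racgap1 were the mitotic genes not called, and none of Mcm2 to Mcm7, Pcna or Tyms was called. The median log2 difference was 1.59 over the mitotic genes and 0.47 over the replication genes, or 0.96 and 0.31 with every mean under background set to that level.

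The largest fitted differences were those of Cdkn3, Ect2 and Mki67, and values are given in order of rat number. Cdkn3 signals were 5.03, 5.90 and 8.09 log2 units in the combination rats at 8 d, against 2.71, 3.02 and 2.96 in the vehicle rats at 15 d, a difference of at least 3.93-fold (limma adjusted p = 0.000158). Ect2 signals were 5.24, 6.03 and 7.83, against 2.85, 3.06 and 2.92, or at least 3.99-fold (adjusted p = 7.47e-06). Every combination rat lay above background and every vehicle rat below it for these 2 genes, and the groups did not overlap. Mki67 signals were 5.06, 4.76 and 7.09 in the combination rats and 2.45, 2.83 and 2.91 in the vehicle rats, at least 2.40-fold (adjusted p = 9.22e-05). Top2a, the topoisomerase that untangles replicated chromosomes, had 5.13, 5.75 and 7.43 in the combination rats and 4.27, 4.25 and 4.47 in the vehicle rats, at least 3.33-fold (adjusted p = 9.51e-05). In both genes the 3 combination rats were above the 3 vehicle rats, and the third of the combination values, that of rat87, was the highest.

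Cdk1 signals were 5.85, 5.94 and 8.07 in the combination rats, against 3.40, 3.74 and 4.004 in the vehicle rats, at least 4.74-fold (adjusted p = 2.97e-05). Its cyclin partners were higher as well: Ccna2, cyclin A, by at least 2.06-fold, Ccnb1, cyclin B1, by at least 1.88-fold, and Ccnb2, cyclin B2, by 2.82-fold (adjusted p = 4.15e-05, 0.00407 and 0.0113). Ccnb2 was above background in both groups, with 5.25, 5.81 and 7.54 in the combination rats and 4.80, 4.80 and 4.50 in the vehicle rats, and all 3 combination rats were higher. Among the kinases, Aurka, which matures the spindle poles, was higher by at least 2.31-fold, Aurkb, the kinase of the passenger complex, by at least 1.15-fold and the checkpoint kinase Bub1 by at least 1.84-fold (adjusted p = 0.000692, 8.22e-06 and 0.000226). Plk1, a kinase of mitotic entry and exit that was above background in every group, had 5.70, 5.74 and 6.46 in the combination rats and 5.72, 5.92 and 5.84 in the vehicle rats. Its groups overlapped and it was not called (log2 difference 0.14 ± 0.16 SE, adjusted p = 0.567).

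Genes that end mitosis were in the same set. Cdc20, which activates the anaphase-promoting complex, had 5.08, 5.59 and 7.09 in the combination rats and 4.81, 4.94 and 4.79 in the vehicle rats, a 2.10-fold difference with no overlap (adjusted p = 0.0169). Ube2c, the ubiquitin-conjugating enzyme of that complex, was higher by at least 3.60-fold and Birc5, survivin, by 1.55-fold (adjusted p = 0.000184 and 0.0164). Nusap1, which bundles spindle microtubules, had 5.94, 6.34 and 8.13 in the combination rats and 5.11, 5.16 and 5.05 in the vehicle rats, 3.24-fold (log2 difference 1.70 ± 0.32 SE, adjusted p = 0.000191). Prc1, which bundles the midzone of the spindle, was higher by 3.80-fold (adjusted p = 0.00155). For Nusap1 the lowest combination rat was above the highest vehicle rat. The probe sets of 2 of these genes differed: Cdc20 has 5 probe sets and Ttk has 2, and at least 1 dimmer probe set of each had a change of the opposite sign, −0.02 for Cdc20 and −0.11 for Ttk on the log2 scale, where the probe sets used gave 1.07 and 1.94.

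The 10 replication genes moved less. Tk1, thymidine kinase of the salvage route, was higher by 2.16-fold (log2 difference 1.11 ± 0.18 SE, adjusted p = 2.82e-05), and Rrm1, the large subunit of ribonucleotide reductase, had 6.15, 6.30 and 7.04 in the combination rats and 5.61, 5.63 and 5.38 in the vehicle rats, a 1.95-fold difference (adjusted p = 0.000526). Pcna, the sliding clamp of the replication fork, had 8.73, 8.66 and 8.79 against 8.36, 8.45 and 8.24, which did not overlap and was not called (log2 difference 0.37 ± 0.21 SE, adjusted p = 0.195). Ccnd1, cyclin D1, had 9.56, 9.40 and 9.16 against 8.40, 8.97 and 7.19, a 2.28-fold difference just inside the threshold (adjusted p = 0.0494). The lowest combination rat for Ccnd1 was above the highest vehicle rat.

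**Figure D2:**
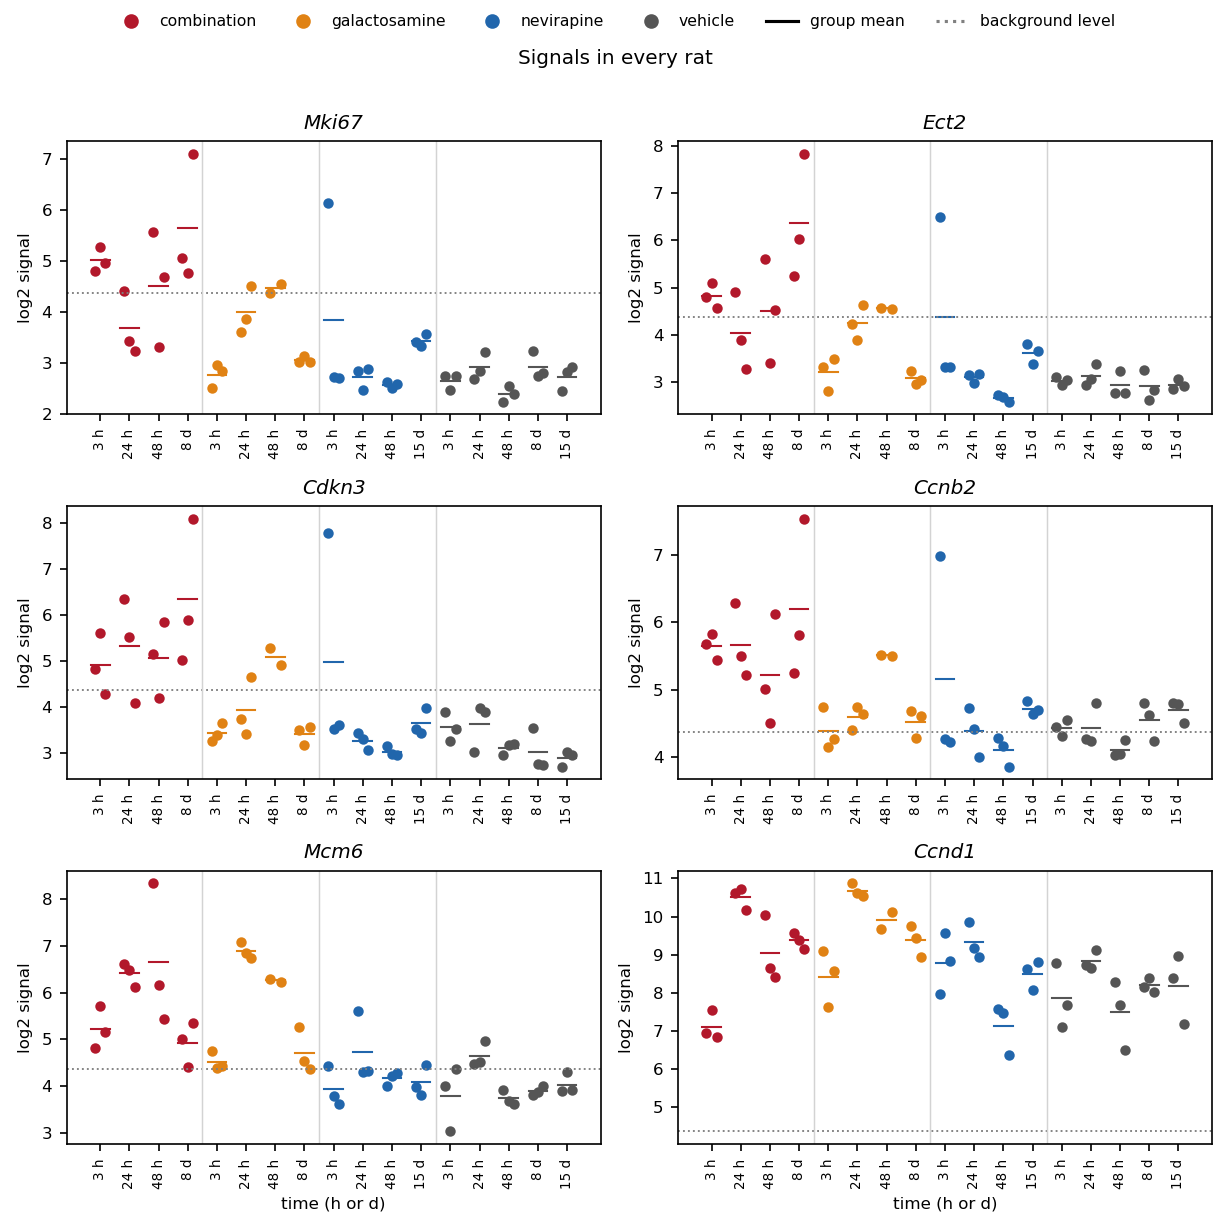
Log2 signal of Mki67, Ect2, Cdkn3, Ccnb2, Mcm6 and Ccnd1 in each rat (points) with group means (bars), groups ordered by treatment and by time, and the background level of 4.37 as a line. Mki67, Ect2, Cdkn3 and Ccnb2 reach their highest value in combination rat87 at 8 d, and Mcm6 is highest in combination rat70 at 48 h.

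The size of this rise depended on rat87, and its direction did not. Of the 30 mitotic genes, 27 had groups that did not overlap, with all 3 combination rats above the 3 vehicle rats, against 23.1% of all genes higher without overlap. Without rat87 the median log2 difference of the mitotic genes was 1.00, 28 of 30 were positive, and 19 of the 43 genes were called. Leaving out a rat of the higher group cannot create overlap, so the 27 of 30 could not fall. The other 2 rats, rat73 and rat84, each had 24 of the 30 mitotic genes above every one of the 15 vehicle rats, and rat87 had 29. The share of all genes that lay above every vehicle rat was not counted. With the vehicle rats at 8 d as controls in place of those at 15 d, 29 genes were called.

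Markers of other cells moved in the same livers. Of 6 markers of stellate cells and myofibroblasts 4 were called higher at 8 d, with a mean level of 6.82 to 7.04 in the combination rats and 5.91 to 6.17 in the vehicle rats. Of 8 macrophage markers 4 were called higher, with 7.99 to 8.48 in the combination rats and 7.64 to 7.78 in the vehicle rats. Called higher were 1 of 9 markers of T and NK cells and 1 of 4 of cholangiocytes and progenitors, and 0 of 5 of erythroid precursors, 0 of 3 of neutrophils and 0 of 3 of B cells. The hepatocyte level was 12.56 to 12.68 in the combination rats and 12.72 to 12.78 in the vehicle rats. The endothelial level was 8.52 to 8.77 in the combination rats and 8.43 to 8.53 in the vehicle rats. Rat87 was not the highest of its group in macrophage level (8.33, against 8.48 and 7.99 in rat73 and rat84), and it was the highest in stellate level by a smaller step (7.04, against 6.82 and 6.87). RNA quality, read as the excess of the 3′ over the 5′ GAPDH probe set, was 0.049 to 0.334 in the combination rats and 0.035 to 0.118 in the vehicle rats. The part of these markers in the rise of the cell cycle genes was not tested.

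**Figure D3:**
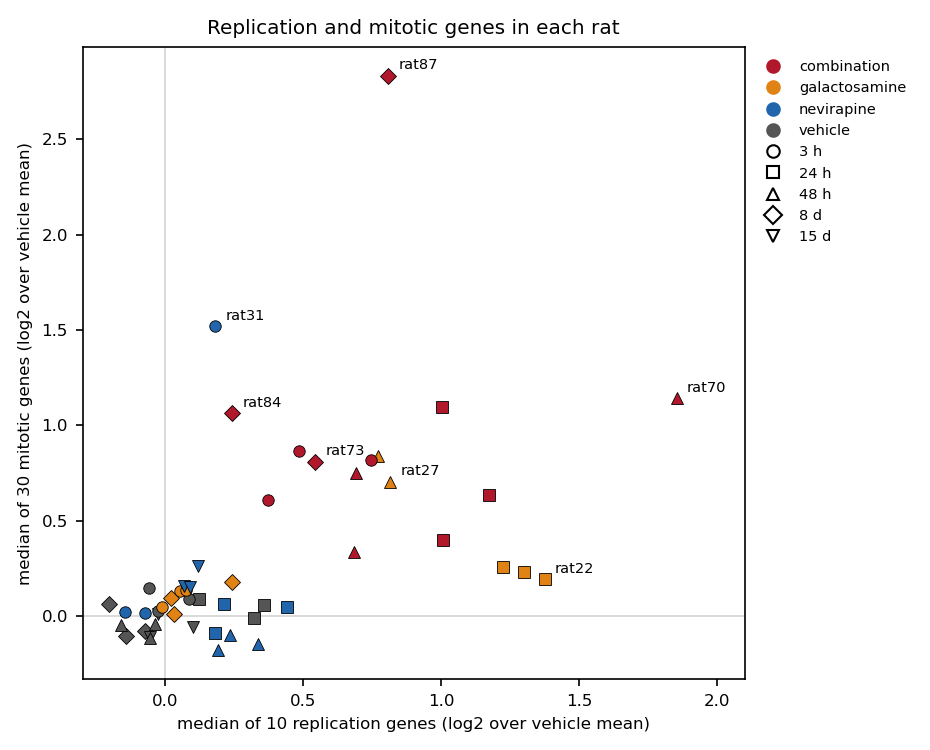
Each of the 50 rats by its median log2 distance from the vehicle mean over the 10 replication genes (x axis) and over the 30 mitotic genes (y axis), coloured by treatment. Combination rats at 8 d lie high on the mitotic axis, galactosamine rats at 24 h lie far along the replication axis with mitotic medians of 0.19 to 0.25, and vehicle rats cluster around 0.

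With either drug alone, none of the 43 genes was called at the matching stage. In galactosamine rats at 8 d, 0 of 43 genes were called against vehicle rats at 8 d (3 at an unadjusted p under 0.05), with a median log2 difference of 0.16. Few genes of any kind were called in that comparison, 0.0352% in either direction. In nevirapine rats at 15 d, 0 of 43 were called (1 at an unadjusted p under 0.05), against 13.9% of all genes in either direction, with a median of 0.20. That 0 depended on the fit, since a fit of these 2 groups alone called 16 of the 43 and array weights called 6. In that comparison 29 of the 30 mitotic genes had a positive difference and 16 did not overlap, against 16.9% of all genes higher without overlap. Mki67 had 3.41, 3.32 and 3.57 in the nevirapine rats and 2.45, 2.83 and 2.91 in the vehicle rats, all of them under background. Ect2 had 3.82, 3.39 and 3.66 in the nevirapine rats, and 3.24, 2.96 and 3.05 in the galactosamine rats at 8 d. None of these values reached the background level, while all 3 combination rats at 8 d were above it.

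The differences themselves were tested. The combination effect at 8 d (combination at 8 d minus vehicle at 15 d) exceeded the galactosamine effect (galactosamine at 8 d minus vehicle at 8 d) for 18 of the 43 genes and fell short of it for 0, against 5.87% of all genes higher and 5.34% lower. Of these, 17 were mitotic and 1 was a replication gene, Tk1. On the log2 scale the difference of the 2 effects was 3.25 ± 0.73 for Ect2, 3.05 ± 0.92 for Cdkn3 and 3.00 ± 0.68 for Ccna2 (adjusted p = 0.00351, 0.0262 and 0.0037). Ccna2 signals were 4.46, 4.74 and 7.03 in combination rats at 8 d, 2.67, 2.76 and 2.79 in galactosamine rats at 8 d, 2.51, 2.55 and 2.69 in vehicle rats at 15 d and 2.77, 3.22 and 2.74 in vehicle rats at 8 d. The 3 combination rats were above background and the other 9 rats below it. This count rested heavily on rat87, and without that rat 3 of the 43 genes were called.

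Set directly against nevirapine rats at 15 d, combination rats at 8 d were higher in 23 of 43 genes and lower in 0, against 9.31% of all genes higher and 3.09% lower, with a median log2 difference of 1.40 over the mitotic genes and 0.26 over the replication genes. Ect2 was higher by at least 3.99-fold, Cdkn3 by at least 3.93-fold and Ccna2 by at least 2.06-fold (adjusted p = 3e-04, 0.00392 and 0.00086). Cdkn3 signals in the nevirapine rats were 3.53, 3.44 and 3.98, and those of Ccna2 were 3.23, 2.90 and 3.14. Both sets lay under background and below all 3 combination rats. Without rat87, 7 genes were called.

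**Figure D4:**
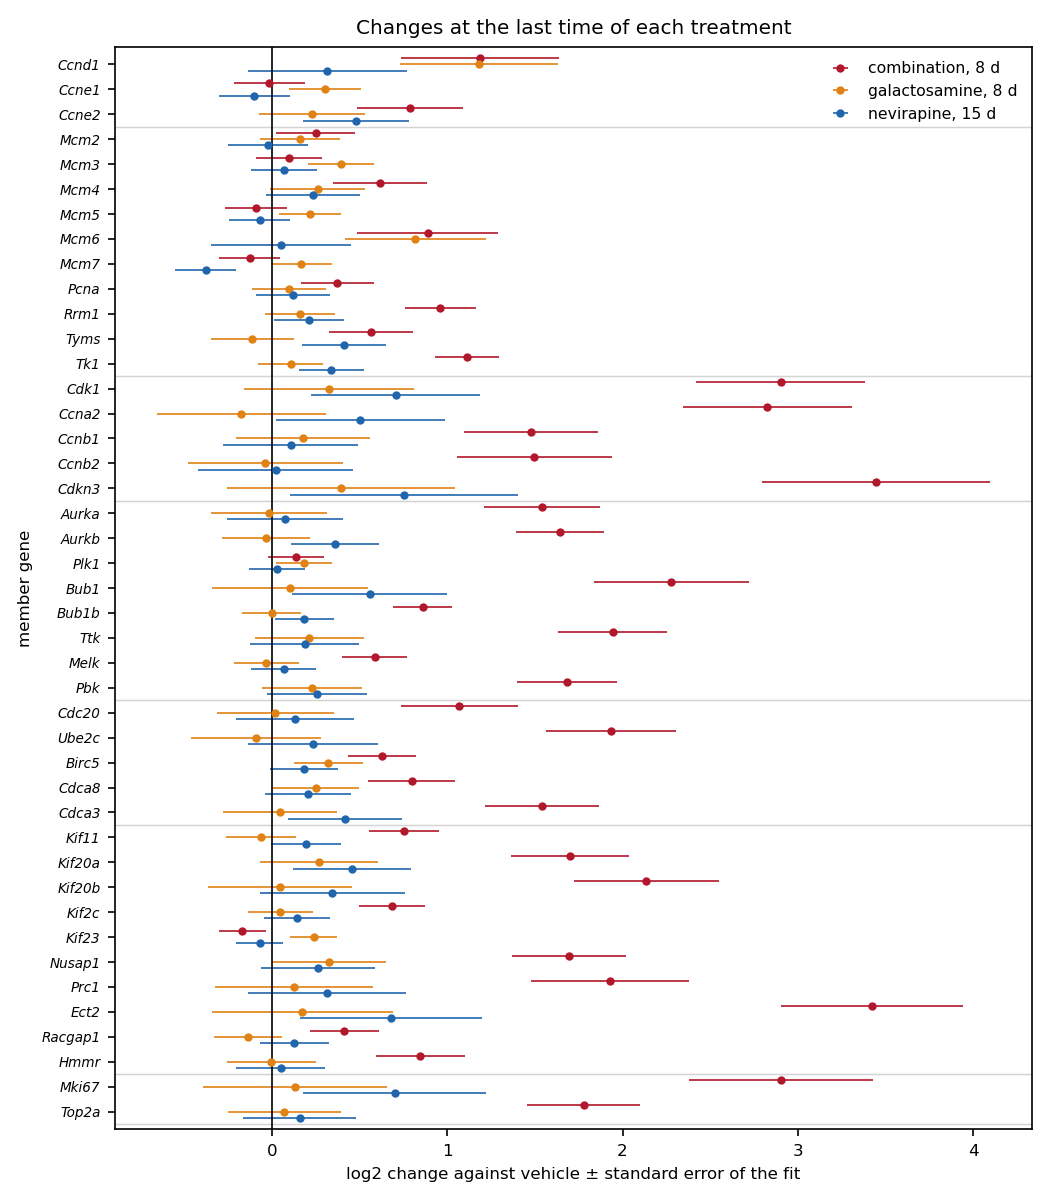
Log2 change with its standard error for each of the 43 genes in combination rats at 8 d, galactosamine rats at 8 d and nevirapine rats at 15 d, each minus its own vehicle group (n = 3 rats per group), as fitted and with no floor at background. The combination points of the mitotic genes, except those of Plk1 and Kif23, stand to the right of the other 2 series, and the 3 series lie closer together for the helicase genes.

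Many mitotic genes were already higher in combination rats at 3 h after galactosamine. Called higher than in vehicle rats at 3 h were 18 of 43 genes, 13 mitotic, 4 replication (Mcm4, Mcm6, Pcna and Rrm1) and 1 G1 cyclin (Ccne2), and 0 were lower, against 15.2% of all genes called higher and 17.4% lower. Every group mean of Ccne2 was under background, and its other, dimmer probe set had a change of the opposite sign. The median log2 difference was 0.67 over the mitotic and 0.49 over the replication genes. It was 0.17 and 0.44 with every mean under background set to that level. Mki67 had 4.80, 5.27 and 4.96 in the combination rats and 2.74, 2.46 and 2.74 in the vehicle rats, at least 1.55-fold (adjusted p = 0.000605). Ect2 had 4.79, 5.09 and 4.57 against 3.11, 2.93 and 3.03, at least 1.36-fold (adjusted p = 0.00722). In both genes all 3 combination rats were above background and all 3 vehicle rats under it.

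Ccna2 in combination rats at 3 h was 4.21, 5.10 and 4.04, against 2.92, 2.68 and 2.66 in vehicle rats, at least 1.06-fold (adjusted p = 0.00634). Nusap1, well above background, had 6.59, 6.80 and 6.36 against 5.61, 5.28 and 5.53, 2.17-fold (adjusted p = 0.00764), and Ccnb2 had 5.68, 5.83 and 5.45 against 4.44, 4.32 and 4.55, 2.32-fold (adjusted p = 0.032). Neither gene's groups overlapped. Ccnd1 was not called: its signals were 6.94, 7.54 and 6.84 in the combination rats and 8.78, 7.11 and 7.68 in the vehicle rats, which overlapped (log2 difference -0.75 ± 0.45 SE, adjusted p = 0.206). In these rats all 8 macrophage markers and 6 of 9 markers of T and NK cells were called higher, with a median macrophage level of 8.84 in the combination rats and 6.99 in the vehicle rats. Also called higher were 2 of 3 neutrophil markers, with levels of 3.84 to 5.19 in the combination rats and 3.10 to 3.26 in the vehicle rats, and 4 of 5 endothelial markers. Of 7 hepatocyte markers 4 were called lower, with levels of 12.18 to 12.62 in the combination rats and 12.78 to 12.82 in the vehicle rats. The part of these markers in the result was not tested. Of the 18 genes called at 3 h, 14 (77.8%) were also called in combination rats at 8 d, where they made up 46.7% of 30 calls, and these 2 comparisons share no rats. With 30 of all 43 genes called at 8 d, an overlap near this size follows from that count alone. Without rat62 of the combination group, 11 genes were called at 3 h.

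With galactosamine alone at 3 h, 0 of 43 genes were called against vehicle rats (0 at an unadjusted p under 0.05), against 32.9% of all genes in either direction, and 4 were called with only these 2 groups fitted. Combination rats at 3 h were higher than galactosamine rats at 3 h in 12 genes and lower in 1, against 10.6% of all genes higher and 7.06% lower. Mki67 signals in the galactosamine rats were 2.51, 2.95 and 2.84, under background, and the combination rats were higher by at least 1.55-fold (adjusted p = 0.00229). Cdk1 had 5.65, 6.21 and 5.30 in the combination rats and 3.80, 4.38 and 3.93 in the galactosamine rats, at least 2.54-fold (adjusted p = 0.0122), and Ect2 was higher by at least 1.36-fold (adjusted p = 0.0263). The lowest combination rat for Cdk1 was above the highest galactosamine rat. Ccnd1 was the 1 gene that was lower: the combination rats had 6.94, 7.54 and 6.84 and the galactosamine rats 9.09, 7.62 and 8.56, a log2 difference of -1.32 ± 0.45 SE (adjusted p = 0.037), with no overlap. Without any 1 of combination rat61 and rat62 and galactosamine rat16, rat17 and rat18, 6 to 8 of the 43 genes were called.

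At 24 h after galactosamine alone, most replication genes and G1 cyclins were higher, while few mitotic genes passed the test. Called higher than in vehicle rats were 8 of 10 replication genes, 2 of 3 G1 cyclins (Ccnd1 and Ccne1) and 4 of 30 mitotic genes (Aurka, Cdca8, Ccna2 and Melk). The 14 of 43 in all is near the background, since 30.2% of all genes were called higher, and none of the 43 was lower, against 28.5% of all genes. The median log2 difference was 1.14 over the replication genes and 0.28 over the mitotic genes. With every mean under background set to that level these medians were 1.14 and 0. Both group means were under background for 18 of the 30 mitotic genes and 0 of the 10 replication genes, so a change in many mitotic genes could not be sized. Mcm6 had 7.07, 6.86 and 6.73 in the galactosamine rats and 4.47, 4.50 and 4.97 in the vehicle rats, 4.73-fold (log2 difference 2.24 ± 0.40 SE, adjusted p = 7.92e-06). Tyms, thymidylate synthase, had 6.22, 4.87 and 5.94 against 3.76, 3.50 and 3.37, at least 2.47-fold (adjusted p = 5.69e-10). Neither gene's groups overlapped.

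Ccnd1 had 10.87, 10.62 and 10.53 in galactosamine rats at 24 h and 8.74, 8.66 and 9.12 in vehicle rats, 3.56-fold (adjusted p = 0.000625), and Pcna had 9.42, 9.68 and 9.14 against 7.86, 8.12 and 7.89, 2.74-fold (adjusted p = 1.49e-07). All 3 treated rats were above all 3 vehicle rats in both genes. Of the 30 mitotic genes, 14 were higher with no overlap, against 29.9% of all genes, and 8 had an unadjusted p under 0.05. Examples with overlap are Ccnb2 and Nusap1: Ccnb2 had 4.41, 4.74 and 4.65 against 4.27, 4.24 and 4.81 and Nusap1 had 5.26, 5.37 and 5.43 against 5.26, 5.52 and 5.25, and neither was called. Per rat, the replication median was 1.22 to 1.37 and the mitotic median 0.19 to 0.25. In these livers 2 of 3 neutrophil markers were called higher, with levels of 3.51 to 4.17 in the galactosamine rats and 3.05 to 3.26 in the vehicle rats. Of 8 macrophage markers 2 were higher and 1 lower, with levels of 7.33 to 7.54 in the galactosamine rats and 6.98 to 7.01 in the vehicle rats. Their part in the result was not tested.

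At 48 h mitotic genes were called in galactosamine rats (n = 2) beside the replication genes. Called higher than in vehicle rats were 15 of 30 mitotic genes, 8 of 10 replication genes and 2 of 3 G1 cyclins, 25 of 43 in all and none lower, against 24.9% of all genes called higher and 14.5% lower. Mcm6 had 6.29 and 6.23 in the galactosamine rats and 3.92, 3.67 and 3.62 in the vehicle rats, at least 3.71-fold (adjusted p = 2.1e-05). Ccnd1 had 9.67 and 10.13 against 8.30, 7.68 and 6.52, 5.27-fold (adjusted p = 0.000214). Mki67 had 4.38 and 4.55 against 2.23, 2.55 and 2.38, at least 1.07-fold (adjusted p = 0.00463), with both galactosamine rats close to the background level. In all 3 genes both treated rats were above the vehicle rats. Of the 5 vehicle groups, that at 48 h had the lowest mean for each of these genes. In these livers 7 of 8 macrophage markers were called higher and 1 lower. The macrophage level had a median of 8.43 in galactosamine rats and 7.11 in vehicle rats. GAPDH 3′ minus 5′ was 0.13 and 0.14 in the galactosamine rats and 0.48, 0.61 and 0.74 in the vehicle rats. The part of the markers and of RNA quality in the result was not tested. Without rat26 13 of the 43 genes were called, and without rat27 14.

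The move between 24 h and 48 h was itself tested for galactosamine, as the difference of the 2 effects. The effect was smaller at 48 h for Pcna and for Mcm7, a helicase subunit, with changes of -0.88 ± 0.31 and -0.77 ± 0.26 on the log2 scale (SE, adjusted p = 0.0249 and 0.0174), and larger for 0 of 43, against 17.2% of all genes lower and 19.3% higher. The median of the mitotic genes was 0.59 higher at 48 h, with none of them called. The count of 2 was 0 by limma without galactosamine rat26 (2 at an unadjusted p under 0.05) and 1 without vehicle rat4, and it was 18 with only the groups compared fitted and 13 with array weights. Mcm7 had 8.33, 8.37 and 8.59 in galactosamine rats at 24 h and 7.29, 7.46 and 7.49 in their vehicle rats, then 7.55 and 7.71 at 48 h and 7.37, 7.38 and 7.39 in those vehicle rats. The treated rats were above their vehicle rats at both times, by a smaller step at 48 h. Of the 14 genes called at 24 h, 13 (92.9%) were called at 48 h, where they made up 52% of the 25 calls among the 43 genes.

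Between 48 h and 8 d the galactosamine effect shrank for 9 of 43 genes and grew for 0, against 16.6% of all genes lower and 7.29% higher. The 9 of 43 is near the share of all genes lower, as is the 5 of 30 among the mitotic genes. The 9 were the replication genes Mcm2, Mcm5, Mcm6 and Tyms and the mitotic genes Ccna2, Aurka, Ube2c, Cdca8 and Aurkb. On the log2 scale the change of the effect was -2.16 ± 0.72 for Ccna2, -1.75 ± 0.36 for Tyms and -1.74 ± 0.34 for Mcm2 (SE, adjusted p = 0.0257, 0.000409 and 0.000222). Tyms had 5.21 and 5.10 in the galactosamine rats at 48 h and 3.65, 3.54 and 3.37 in their vehicle rats, and 3.77, 3.38 and 3.05 at 8 d against 3.38, 3.42 and 3.73 in those vehicle rats. The galactosamine rats were clear of vehicle at 48 h and overlapped it at 8 d. The count was 4 without rat26, 2 without rat27 and 5 without vehicle rat12.

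With both drugs, most replication genes and a smaller part of the mitotic genes were called higher at 24 h and 48 h. At 24 h, 19 of 43 genes were called higher than in vehicle rats and 0 lower, against 20.7% of all genes higher and 16% lower. The 19 were 8 of 10 replication genes, 8 of 30 mitotic genes and all 3 G1 cyclins. The mitotic count is near the share of all genes. With every mean under background set to that level, the median log2 difference was 0.89 over the replication and 0.06 over the mitotic genes. Both group means were under background for 13 of the 30 mitotic genes. Tyms had 5.56, 5.39 and 5.09 in the combination rats and 3.76, 3.50 and 3.37 in the vehicle rats, at least 1.97-fold (adjusted p = 1.02e-07), and Mcm6 had 6.61, 6.48 and 6.13 against 4.47, 4.50 and 4.97, 3.39-fold (adjusted p = 0.000503). Cdkn3 had 6.35, 5.53 and 4.08 against 3.02, 3.98 and 3.91, at least 1.93-fold (adjusted p = 0.0385). Tyms and Mcm6 were above vehicle in all 3 rats, while Cdkn3 was high in rat67 and rat69 and under background in rat79. Tk1 and Rrm1 were the replication genes not called, and both overlapped vehicle. Pcna had 9.45, 9.34 and 9.96 and Ccnd1 10.62, 10.73 and 10.17 in the combination rats, 3.09-fold and 3.18-fold over vehicle (adjusted p = 6.16e-08 and 0.00297). Without rat67, 12 genes were called.

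At 48 h, 27 of 43 genes were called higher in combination rats than in vehicle rats and 0 lower, against 10.2% of all genes higher and 5.77% lower, among them all 10 replication genes, 14 of 30 mitotic genes and all 3 G1 cyclins. Mcm6 had 8.34, 6.16 and 5.44 in the combination rats and 3.92, 3.67 and 3.62 in the vehicle rats, at least 4.84-fold (adjusted p = 3.04e-06). Mki67 had 5.56, 3.31 and 4.67 against 2.23, 2.55 and 2.38, at least 1.10-fold (adjusted p = 0.00395), and Cdk1 had 6.47, 4.68 and 5.85 against 3.29, 3.70 and 3.64, at least 2.45-fold (adjusted p = 0.00186). All 3 combination rats were above all 3 vehicle rats in each gene, and the first of the 3, rat70, was the highest. A fit of these 2 groups alone called 6 genes, and array weights called 13. Leaving out vehicle rat10, rat11 or rat12 gave 17, 17 and 15 calls. Without rat70, 8 of the 43 genes were called and the median log2 difference over all 43 was 0.62, against 1.01 with it. Over the replication genes it was 0.73 without rat70. With all 3 rats all 10 were higher without overlap, where 15% of all genes were. Leaving out a combination rat cannot undo that.

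Plk1 and Cdc20 show the range among the mitotic genes over this course. Plk1 had 6.15, 6.08 and 5.89 in combination rats at 24 h and 5.83, 5.81 and 5.52 in vehicle rats, and 5.85, 5.41 and 6.43 at 48 h against 5.72, 5.86 and 5.69. It was called at neither time, with no overlap at 24 h and overlapping groups at 48 h. Cdc20 had 6.62, 5.19 and 5.71 in combination rats at 48 h and 4.48, 4.52 and 4.80 in vehicle rats, 2.36-fold (adjusted p = 0.00858), with no overlap, although 2 of its 4 dimmer probe sets had the opposite sign (−0.18 and −0.06 on the log2 scale). Of the 19 genes called in combination rats at 24 h, 16 (84.2%) were also called at 48 h, where they were 59.3% of the 27 calls among the 43 genes. Macrophage markers were called higher at both times, 6 of 8 at 24 h and 7 of 8 at 48 h. GAPDH 3′ minus 5′ medians were 0.31 in combination rats and 0.61 in vehicle rats at 48 h, and their part in the result was not tested.

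The combination was also set directly against galactosamine alone at these times. At 24 h combination rats were higher in 5 genes, against 16.2% of all genes, and lower in 1, against 21.6%. The 5 higher genes were mitotic, and 5 of 30 is near the 16.2% of all genes. The median log2 difference was 0.32 over the mitotic genes and −0.33 over the replication genes, of which 2 of 10 were positive. Ccnb1 had 5.05, 4.49 and 4.22 in the combination rats and 3.64, 3.20 and 4.01 in the galactosamine rats, at least 1.16-fold (adjusted p = 0.0431), and Cdc20 had 6.23, 5.69 and 5.18 against 4.73, 4.60 and 5.03, 1.88-fold (adjusted p = 0.0286). Nusap1 had 6.86, 6.02 and 5.64 against 5.26, 5.37 and 5.43, 1.76-fold (adjusted p = 0.0445). All 3 combination rats were above all 3 galactosamine rats in each of these genes. Ccne1, cyclin E1, was lower, with 6.02, 6.10 and 5.81 in the combination rats and 6.69, 6.54 and 6.35 in the galactosamine rats (log2 difference -0.54 ± 0.20 SE, adjusted p = 0.0317). Without rat67, 0 of the 43 genes were called by limma in this comparison, and 2 had an unadjusted p under 0.05. Leaving out galactosamine rat22, rat23 or rat24 gave 1, 1 and 3 calls, and leaving out combination rat69 gave 2. With array weights 14 genes were called, and 13 with rat63, rat70 and rat31 left out of the fit.

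At 48 h combination rats were higher than galactosamine rats in 2 genes and lower in 1, against 12.1% and 17.1% of all genes. Kif11, the motor that drives spindle poles apart, had 5.04, 4.52 and 4.25 in the combination rats and 4.002 and 3.65 in the galactosamine rats, at least 1.18-fold (adjusted p = 0.00737), although its 1 other, dimmer probe set had the opposite sign (−0.40 on the log2 scale). Mcm3 had 6.89, 5.95 and 5.76 against 5.53 and 5.60, 1.56-fold (adjusted p = 0.0197). Tyms was lower, with 4.76, 4.11 and 3.81 in the combination rats and 5.21 and 5.10 in the galactosamine rats, by at least 1.72-fold (adjusted p = 0.00781). The groups did not overlap in these 3 genes. The count of 3 was 1 without galactosamine rat26 or rat27, 5 without rat70, 7 without rat71 and 9 without rat72, and with only these 2 groups fitted limma called 0 (4 at an unadjusted p under 0.05).

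From 24 h to 48 h the combination effect grew for Mcm3, by 0.77 ± 0.27 on the log2 scale, and shrank for Tyms, at -1.10 ± 0.34 (SE, adjusted p = 0.0438 and 0.0228), against 7.3% of all genes higher and 7.33% lower. From 48 h to 8 d it shrank for 6 genes, all of replication or G1 (Mcm2, Mcm3, Mcm5, Mcm6, Mcm7 and Ccne1), and grew for 1, the checkpoint kinase Ttk, against 4.97% of all genes lower and 4.04% higher. Mcm6 changed by -2.02 ± 0.57, Mcm5 by -1.42 ± 0.25 and Mcm2 by -1.38 ± 0.32 (adjusted p = 0.0212, 0.000567 and 0.00552). Mcm5 had 7.16, 6.35 and 6.09 in combination rats at 48 h and 5.11, 5.37 and 5.15 in their vehicle rats, then 5.19, 4.88 and 5.39 at 8 d and 5.26, 5.15 and 5.33 in the vehicle rats at 15 d. It was clear of vehicle at 48 h and overlapped it at 8 d. Leaving out combination rat84, vehicle rat11 or vehicle rat14 gave 4 calls each.

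Ttk had 3.24, 2.72 and 3.18 in combination rats at 48 h and 2.43, 2.58 and 2.72 in vehicle rats, and 3.83, 3.84 and 5.64 at 8 d against 2.43, 2.40 and 2.65 in vehicle rats at 15 d, a change of the effect of 1.47 ± 0.44 on the log2 scale (adjusted p = 0.0304). Of these rats only rat87 was above background for this gene. Over the same interval the mitotic median of the effect was 0.68 higher at 8 d, and it was not taken without rat87. Without that rat the median change over all 43 genes was 0.04, against 0.37 with it. The change for Ttk was then 0.87. Of the 27 genes called at 48 h, 17 (63%) were also called at 8 d, where they were 56.7% of 30 calls. With 30 of all 43 genes called at 8 d, this overlap is no larger than that count alone gives.

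After the first doses of nevirapine alone few of the 43 genes were called, and 1 rat stood apart. At 3 h the spindle motor Kif20b was the 1 gene called higher and 0 were lower (11 at an unadjusted p under 0.05), against 7.59% and 7.48% of all genes. Kif20b had 5.83, 3.42 and 3.04 in the nevirapine rats and 2.79, 3.14 and 2.84 in the vehicle rats (adjusted p = 0.0479), with a group mean under background in both groups. The first of the nevirapine values is that of rat31. For Mki67 the nevirapine rats had 6.12, 2.72 and 2.70, for Ect2 6.49, 3.31 and 3.32, for Cdkn3 7.77, 3.53 and 3.62 and for Ccnb2 6.98, 4.27 and 4.23. In each of these genes rat31 was above every vehicle rat at any time, as it was for 28 of the 30 mitotic genes, a count not taken over all genes. Its replication median was 0.18. The median log2 difference of the mitotic genes was 0.48 with rat31 and −0.09 without it. Rat31 had a macrophage level of 8.07 against 7.77 and 7.26 in the other 2 rats, an erythroid level of 6.84 against 6.46 and 6.29, a level of cholangiocyte and progenitor markers of 5.20 against 4.49 and 4.55, and a stellate level of 6.30 against 5.96 and 5.87. It was also the highest in B cell level (4.91, against 4.61 and 4.60) and neutrophil level (3.40, against 3.19 and 2.93). It lay between the other 2 in T and NK level (4.34, against 4.44 and 4.29), endothelial level (8.57, against 8.65 and 8.38) and hepatocyte level (12.80, against 12.77 and 12.85). GAPDH 3′ minus 5′ was 0.31 in rat31 and 0.18 and 0.10 in the other 2. The part of these levels and of RNA quality in its mitotic values was not tested. By limma 8 of the 43 genes were called without rat32 or rat33, and Kif20b lost its call without rat31 or without any 1 of the 3 vehicle rats.

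At 24 h after the first nevirapine dose, Rrm1 was lower, with 5.56, 5.04 and 5.55 in the nevirapine rats and 6.03, 6.30 and 6.24 in the vehicle rats (log2 difference -0.81 ± 0.20 SE, adjusted p = 0.00596), and 0 genes were higher, against 6.63% of all genes lower and 4.55% higher. At 48 h Pcna and Mcm2 were higher and 0 were lower, against 11% and 6.44% of all genes. Pcna had 8.48, 8.51 and 8.51 in the nevirapine rats and 7.72, 7.65 and 7.59 in the vehicle rats, 1.80-fold (adjusted p = 0.00473), and Mcm2 had 5.82, 5.87 and 5.61 against 5.04, 5.15 and 4.87, 1.68-fold (adjusted p = 0.0191). In all 3 of these genes the groups did not overlap. Mcm2 and Rrm1 also varied among the vehicle groups, and Pcna just missed the threshold of limma's F test there (adjusted p = 0.0503). Vehicle group means of Pcna ran from 7.66 at 48 h to 8.35 at 15 d. Of the vehicle groups, that at 48 h was the lowest for Pcna and Mcm2, and that at 24 h was the highest for Rrm1. The mitotic median per rat at these 2 times was −0.18 to 0.06, with none of the 30 genes called.

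Other genes of the pathway, from lists separate from the 43, were read in the same fits. Of 28 further mitosis genes, 20 were called higher in combination rats at 8 d and 0 lower, with a median log2 difference of 0.81, against 13.1% of all genes called higher and a median of −0.02. Stmn1, stathmin, a regulator of microtubules, was higher by 5.88-fold, and Smc2, a condensin subunit, by 3.38-fold (adjusted p = 5.01e-07 and 2.26e-05). Spc25, a kinetochore subunit, was higher by at least 2.42-fold (adjusted p = 0.000368). Of 29 further replication genes 4 were called higher at 8 d and 0 lower, which is near that share, with a median of 0.19. Hells, a chromatin remodeller, led them at at least 3.13-fold (adjusted p = 4.67e-06). At 24 h in galactosamine rats the order was the other way, with 18 of 29 replication genes higher and 2 lower (median 0.65) and 11 of 28 mitosis genes higher and 0 lower (median 0.41), against 30.2% of all genes higher and 28.5% lower (median −0.07). Cdt1, which loads the helicase, was higher by at least 6.56-fold there (adjusted p = 4e-11).

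Among 16 regulators of G1, Myc was higher by 4.25-fold and the pocket protein Rbl2 lower by 5.69-fold in galactosamine rats at 24 h (adjusted p = 7.05e-05 and 1.77e-17), with 6 genes higher and 3 lower in all, against 30.2% and 28.5% of all genes. In combination rats at 8 d 4 of the 16 were higher and 1 lower, against 13.1% and 11.7% of all genes, with Tfdp1, the partner of E2F factors, higher by 2.24-fold (adjusted p = 1.93e-06). Of 15 growth arrest genes, Cdkn1a, the p21 inhibitor of cyclin-dependent kinases, was higher by 14.6-fold in galactosamine rats and 8.55-fold in combination rats at 24 h (log2 differences 3.87 ± 0.33 and 3.10 ± 0.33 SE, adjusted p = 7.6e-13 and 1.56e-09), 2 comparisons that share their vehicle rats. It was higher by 6.95-fold and 1.92-fold at 48 h, again in galactosamine and in combination rats. In combination rats at 8 d it was not called (log2 difference 0.15 ± 0.33 SE, adjusted p = 0.782), while 6 other growth arrest genes were higher and 1 lower, beside the same 13.1% and 11.7%, led by Gadd45b at 2.94-fold (adjusted p = 0.00416). Of 16 growth factors and receptors of liver regeneration, 3 were called higher in combination rats at 8 d and 0 lower, beside the same shares, among them Hgf, hepatocyte growth factor, at 1.47-fold (adjusted p = 0.0414).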

How the data were processed

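Liver RNA of 50 rats was measured on Affymetrix rat arrays, 1 array per rat. The authors deposited log2 probe set signals. Per the submitters' processing notes they used RMA and limma, in versions not given in the sources used here. The depth of an array has no count behind it, and the number of arrays per group (3, or 2 in 1 group) limits the precision. Groups came from the sample labels, which give each rat a number of its own. No date or scan time is given in the sources used here, so batches were not examined.

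Of 31099 probe sets, 20826 carried 1 gene symbol in the platform annotation. Each of 14217 genes was read from its probe set with the highest mean over the 50 arrays (4525 genes had several), with no scaling and no filter on dim genes. limma 3.58.1 (R 4.3.3) fitted the 17 group means by lmFit and eBayes, and 22 comparisons were tested with Benjamini-Hochberg adjustment over all genes at 0.05. p-values measure the spread between rats. The scripts were tested on simulated data. Tables were handled with Python 3.11.15 and pandas 2.3.3.

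The 43 genes and the other gene lists were chosen with earlier results of these data known, so their counts are descriptions beside the share of all genes called. Values in every rat are given for Mki67, Top2a, Ccnd1, the gene with the highest mean in each other role group and up to 3 called genes with the largest rise or fall in each comparison. Promoter sequences are those of RefSeq (GRCr8), and promoters were listed for 35 of the 43 genes.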

Additional observations from a re-analysis of the deposited data

Results flagged for a closer look

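The values below are tests of a difference between 2 treatments or 2 times, made as limma contrasts in the fit over all 17 groups, in which called genes had an adjusted p under 0.05. Combination rats differed from galactosamine rats in 13 of the 43 genes at 3 h, 6 at 24 h and 3 at 48 h. At 8 d the combination effect differed from the galactosamine effect in 18. Between 24 h and 48 h the galactosamine effect differed in 2 genes and the combination effect in 2, and between 48 h and 8 d in 9 and 7.

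At 3 h the log2 difference between combination and galactosamine rats was 2.24 for Mki67, 1.69 for Cdk1, 1.61 for Ect2 and −1.32 for Ccnd1. At 24 h it was 0.97 for Ccnb1, 0.91 for Cdc20, 0.82 for Nusap1 and −0.54 for Ccne1, and at 48 h it was 0.78 for Kif11, 0.64 for Mcm3 and −0.93 for Tyms. At 8 d the combination effect exceeded the galactosamine effect by 3.25 for Ect2, 3.05 for Cdkn3 and 3.00 for Ccna2. Several of these genes had group means under the background level, so the fitted sizes of Mki67, Ect2, Cdk1, Cdkn3, Ccna2, Ccnb1, Kif11 and Tyms are not bounds.

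The galactosamine effect changed between 24 h and 48 h by −0.88 for Pcna and −0.77 for Mcm7, and between 48 h and 8 d by −2.16 for Ccna2, −1.75 for Tyms and −1.74 for Mcm2. The combination effect changed between 24 h and 48 h by 0.77 for Mcm3 and −1.10 for Tyms, and between 48 h and 8 d by 1.47 for Ttk, −2.02 for Mcm6, −1.42 for Mcm5 and −1.38 for Mcm2.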

How the results depend on the processing

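No paired analysis was possible because every rat has a number of its own and the groups share none. No single gene named for a comparison changed sign under any setting run. Medians over all 43 genes did so 18 times, in 7 comparisons. These were nevirapine at 3 h (0.30, and −0.03 without rat31), 24 h and 48 h, the combination against galactosamine at 24 h and at 48 h (0.05, and −0.14 without rat70) and both changes of the combination effect (0.37 to 8 d, and −0.35 with the dimmest genes left out). The counts here are of the 43 genes called. Fitted on the groups compared alone, 4 were called for galactosamine at 3 h, 6 and 16 for nevirapine at 48 h and 15 d, 6 for the combination at 48 h, 0 and 11 for the combination against galactosamine at 48 h and against nevirapine at 15 d, 18 and 25 for the change of the galactosamine effect to 48 h and to 8 d, 0 and 2 for that of the combination effect, and 10 over the vehicle groups. With the dimmest 40% of genes left out, 9 of the 43 remain in the test: 5 and 6 were called for galactosamine at 24 h and 48 h, 0 for nevirapine at 3 h, 4, 6, 7 and 4 for the combination at 3 h, 24 h, 48 h and 8 d, 5, 1 and 0 against galactosamine at 3 h, 24 h and 48 h, 2 for the effects at 8 d, 3 against nevirapine, 0 and 2 for the later changes of the combination effect and 1 for the last of the galactosamine effect. Array weights gave 2, 3 and 6 for nevirapine at 3 h, 24 h and 15 d, 2 for galactosamine at 3 h, 13 for the combination at 48 h, 14 and 6 against galactosamine at 24 h and 48 h, 30 for the effects at 8 d, 13 and 21 for the changes of the galactosamine effect and 6 over the vehicle groups. Without rat63, rat70 and rat31 the counts were 3 for galactosamine at 3 h, 2, 2 and 1 for nevirapine at 3 h, 24 h and 15 d, 14 for the combination at 48 h, 13 and 6 against galactosamine at 24 h and 48 h, 6 and 18 for the changes of the galactosamine effect and 6 over the vehicle groups. With all 15 vehicle rats as 1 control they were 2 and 1 for galactosamine at 3 h and 8 d, 12, 3 and 1 for nevirapine at 3 h, 24 h and 48 h and 30 for the combination at 3 h. The treated groups at 8 d compared directly gave 30. Nevirapine at 3 h gave 0 with a trended robust prior, with the mean of all probe sets and with the GAPDH difference as a covariate, and 2 with cyclic loess, and nevirapine at 24 h gave 2 with the mean of all probe sets. Combination against galactosamine at 24 h gave 3 with the prior, the probe set mean and loess and 2 with the covariate, and at 48 h 5 with loess. Loess gave 1 for the change of the combination effect to 48 h and 1 over the vehicle groups, and the covariate gave 5 and 4 for the changes of the galactosamine and the combination effect to 8 d and 1 over the vehicle groups. The causes were not tested. The medians by role without rat87, rat70 and rat31, and those with levels set to background, were chosen after seeing the data.

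With each rat left out in turn, the counts ranged from 19 to 30 for the combination at 8 d, 8 to 32 at 48 h, 12 to 18 at 24 h and 11 to 19 at 3 h, from 13 to 15 and 13 to 21 for galactosamine at 24 h and 48 h, from 0 to 8, 0 to 2 and 1 to 2 for nevirapine at 3 h, 24 h and 48 h, from 6 to 9, 0 to 5 and 1 to 9 for the combination against galactosamine at 3 h, 24 h and 48 h, from 3 to 25 for the effects at 8 d, 7 to 27 against nevirapine, 0 to 3 and 2 to 7 for the changes of the galactosamine effect, 0 to 4 and 4 to 9 for those of the combination effect and 0 to 3 over the vehicle groups. Of the medians and single genes under the other settings, 511 were counted as unchanged, 42 single genes lost their call and 18 medians moved by more than the spread between rats. An unchanged single gene kept its sign and call. An unchanged median moved by less than that spread, whatever its sign, so some of the sign changes above are among the 511. The counts of called genes stayed near their main value in 121 cases and moved further in 69. Signals under 4.37 limit sizes, and 25 of the 43 genes had some group means there and 3 had all of them there.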

Other observations

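Of the 16 growth factors and receptors, 3 were called higher and 2 lower in galactosamine rats at 24 h, against 30.2% and 28.5% of all genes. Egf, epidermal growth factor, was lower in galactosamine rats by 6.09-fold at 24 h and 3.58-fold at 48 h (limma adjusted p = 2.61e-16 and 5.3e-10), and in combination rats by 3.49-fold and 1.76-fold (adjusted p = 6.65e-11 and 0.000638). The 2 treatments share their vehicle rats at each time. Tgfa, a ligand of the same receptor, was higher by 2.75-fold in galactosamine rats and 1.77-fold in combination rats at 24 h (adjusted p = 4.65e-09 and 0.000297), and Egfr, the receptor, was lower by 1.57-fold and 1.63-fold (adjusted p = 0.00623 and 0.00549). Wee1, a kinase that holds Cdk1 inactive, was higher by 8.94-fold in galactosamine rats at 24 h and 1.90-fold in combination rats at 8 d (adjusted p = 3.85e-13 and 0.00934). Jun, an immediate early factor, was higher by 5.05-fold in nevirapine rats and 2.86-fold in combination rats at 3 h (adjusted p = 9.1e-05 and 0.00306), against the same vehicle rats, and lower by 4.14-fold in galactosamine rats at 48 h (adjusted p = 0.000292).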
